A study of Mus musculus with 10 samples.

Results

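The desert tumours were 5 of the 10 mouse gastric tumours of the series, and they were chosen by their labels alone, as the columns of the deposited table that belong to desert tumours 1 to 5. Per the labels, all 5 came from stomach, were made as orthotopic allografts (tumour cells placed into the stomach of a mouse) and carry wild type as their genotype. Whether that genotype describes the host or the graft, which cells were grafted, how the grafted cells had been altered, the strain and the age are not stated in the labels. The protocol text speaks of fewer tumours than the series holds, and all 5 desert tumours entered the analysis. TRIzol served to extract total RNA, which was sequenced as 1 library per tumour, and the expression of each gene was deposited as FPKM, the number of reads scaled by gene length and library size. No condition varied inside the group, so no test between conditions was possible, and every statement below is a description of 5 libraries. The labels do not say more about how separate the 5 grafts were, so the spread between them may be partly technical.

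An allograft holds RNA of the grafted cells and of the host tissue that grew into it or was cut out with it. Genes of a single differentiated tissue, such as the sarcomere genes of skeletal muscle or the globins of red blood cells, can show host tissue even when it is a small share of the sample, whereas keratins and cell adhesion genes of epithelium are shared by carcinoma cells and the host's gastric lining and do not separate them. In bulk RNA, fewer cells of a type and less RNA per cell cannot be told apart. Variation among grafts of 1 kind is therefore read here by groups of genes that define a tissue or a process.

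The 5 libraries held 14148147 to 16951640 reads in genes, and 13097 to 13589 genes reached 1 FPKM in a library. Mitochondrially encoded genes took 1.38% to 1.76% of the reads and the 10 most abundant genes 3.57% to 4.71%. Across the 8037 genes with a mean of at least 5 FPKM, Pearson correlations of log2(FPKM + 1) between libraries were 0.903, for desert tumours 1 and 4, to 0.965, for desert tumours 3 and 5. These correlations run across genes, which are not independent replicates. The pair of tumours 1 and 4 had 500 genes at least 2-fold apart on this scale and the pair of tumours 3 and 5 had 67. A first principal component took up 44.0% of the variance, with desert tumour 1 at one end (score 0.31) and desert tumour 4 at the other (score -0.23), and the next component held 29.0%. Desert tumours 2 and 3 stood apart in skeletal muscle genes, described below, and desert tumour 1 stood apart in its total FPKM, which came to 269525 against 236901 to 249849 in the others. Rescaling to TPM, which makes these sums equal, moved the median gene by -0.12 in desert tumour 1 and by no more than 0.05 in the other tumours on the log2 scale.

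The 20 most abundant genes included mitochondrially encoded genes, genes of protein synthesis and the cytoskeleton, and H19, Obp2a and Npy. Of the 56748 genes in the table, 14.2% had a mean of at least 5 FPKM. Among the 20 genes of highest mean, the mitochondrially encoded mt-Cytb, mt-Co1, mt-Nd1, mt-Nd4 and mt-Nd2 had means of 3354, 2932, 2301, 931 and 759 FPKM. mt-Cytb varied little (3394, 3514, 3334, 3133 and 3396 FPKM in desert tumours 1 to 5), whereas mt-Co1 was at 4347 in tumour 1 and at 2222 in tumour 5. Nuclear genes of the same set were Rn18s-rs5, a ribosomal RNA gene (mean 1890), Tmsb4x, an actin-binding peptide (1890), H19, an imprinted long noncoding RNA (1670), Eef1a1, a translation elongation factor (1434), Ifitm3, an interferon-inducible membrane protein (1357), and Actg1, a cytoskeletal actin (966). Rplp1, Rps3a1, Rpl41 and Eef2 of the translation machinery, the chaperone Hsp90ab1, the epithelial surface glycoprotein Cd24a and B2m, the light chain of MHC class I, were also among them, with means of 665 to 980 FPKM.

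A pair of the 20 most abundant genes encode secreted proteins and differed widely among the grafts. Obp2a, a lipocalin known as an odorant-binding protein, was at 155, 320, 1968, 442 and 1322 FPKM in desert tumours 1 to 5. Npy, the neuropeptide Y precursor, was at 2089, 657, 402, 168 and 503 FPKM. Tumours 3 and 5 were high in Obp2a and tumour 1 was the lowest, whereas in Npy tumour 1 was the highest and tumour 4 the lowest. The highest value was 12.7 times the lowest for Obp2a and 12.4 times for Npy.

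The grafts had the expression of a simple, glandular epithelium. All 12 genes of the general epithelium list reached a mean of 5 FPKM, and their sum was 2052 ± 318 FPKM (SD, n = 5). Krt8, a keratin of simple epithelia, was at 568, 470, 484, 475 and 554 FPKM in desert tumours 1 to 5, and its partner Krt18 was at 868, 622, 576, 501 and 647 FPKM. Epcam, an epithelial adhesion molecule, ranged from 225 to 430 FPKM, Cdh1 (E-cadherin) from 105 to 147 and Krt19 from 155 to 200. No tumour lost these markers, and the highest sum was 1.47 times the lowest. Of the list only Cldn4, a tight junction protein, reached the SD of 0.5 that was used to call a gene variable (25.2, 28.1, 19.7, 43.1 and 16.8 FPKM). That is 8.33% of the list, beside 6.86% of all genes with a mean of at least 5 FPKM. The median SD of the 12 genes was 0.30, beside 0.20 over all those genes, so they were no steadier than most.

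Several transcription factors of the foregut and of endodermal ducts were expressed in all 5 grafts. None of the 7 with a mean of at least 5 FPKM was variable, beside 6.86% of all genes with that mean. Sox9, a factor of progenitor and duct cells, was at 174, 147, 146, 155 and 141 FPKM, and Foxa3, a forkhead factor of endoderm, at 104, 79.5, 65.1, 69.1 and 70.4 FPKM. Sox2, a factor of the foregut, ranged from 29.7 FPKM in tumour 1 to 56.8 FPKM in tumour 5, and Gata6 and Foxa1 had means of 19.7 and 18.2 FPKM. The list's summed level was within 1.17-fold over the tumours, highest in tumour 1 as reported and in tumour 4 after TPM or quantile scaling, and 7 of its 15 genes reached a mean of 5 FPKM. The median SD of these 7 was 0.26, beside 0.20 over all genes with that mean, so they were no steadier than most. Gata4, Barx1 and Pdx1, which also act in stomach or duodenum, had means of 0.313, 0.584 and 0.954 FPKM. Hnf4a, a factor of liver and intestine, was low and uneven, at 2.40, 3.51, 1.80, 8.21 and 0.622 FPKM.

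Markers of mature stomach cells were split between a few that were expressed and a larger number that were low. Of the 10 genes found from the gastric lining list, 3 reached a mean of 1 FPKM, and 2 of these a mean of 5 FPKM. Another 4 stayed below 1 FPKM in every tumour. Muc6, the mucin of gastric glands, was at 10.6, 7.07, 35.4, 31.0 and 22.6 FPKM, and Atp4a, a subunit of the parietal cell proton pump, at 13.4, 9.01, 17.1, 2.29 and 11.6 FPKM. Its obligate partner subunit Atp4b did not exceed 0.454 FPKM, the trefoil peptide Tff1 did not exceed 0.0748 and the zymogen Pgc did not exceed 1.31. The gastrokines Gkn1 and Gkn2 were at 3.01 and 3.88 FPKM in tumour 2 and below 1 in the other tumours. Ctse, a gastric aspartic protease outside the list, was expressed at a mean of 110 FPKM and is described further below.

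Of the 10 intestinal genes, 2 reached a mean of 5 FPKM, and the list's sum was highest in tumour 5 as reported and in tumour 3 after TPM or quantile scaling. Lgr5, a Wnt-driven receptor of stem cells, was at 100, 76.3, 107, 61.8 and 82.7 FPKM, and Reg4, a secreted lectin, at 46.5, 33.8, 46.5, 28.2 and 76.3 FPKM. Cdx2, the master factor of intestine, and Olfm4, a stem cell marker, had 0 reads in all 5 libraries. Squamous markers were near 0 as well: all 10 genes of that list stayed below 1 FPKM in every tumour, among them Krt5 and Krt14. Of the lung list 7 of 8 genes stayed below 1 FPKM in every tumour, and so did all 8 genes of the pluripotency and germ cell list. Nkx2-1, Pou5f1 and Nanog, which define these cells, had no read. The highest enteroendocrine marker was Ghrl, the ghrelin precursor, with a mean of 2.10 FPKM.

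**Figure D1:**
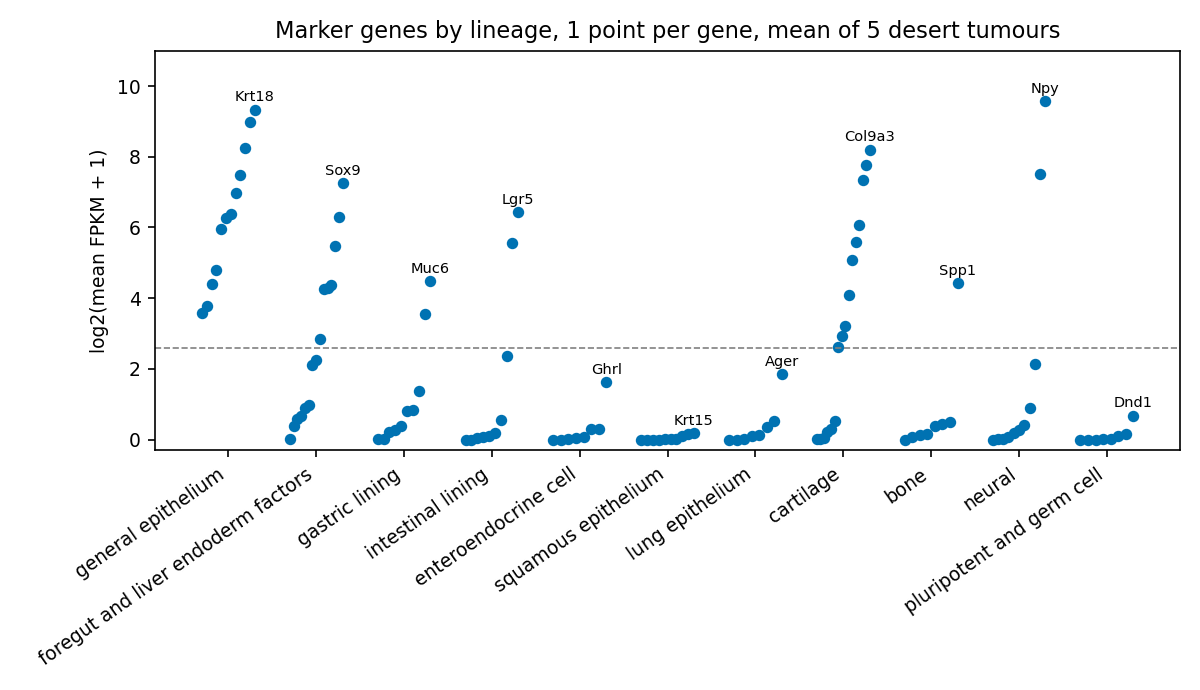
Mean expression of marker genes in the 5 desert tumours, as log2(mean FPKM + 1), with 1 point for each gene of a list, ordered by level, and the gene of highest mean named. The dashed line marks a mean of 5 FPKM. All 12 general epithelium genes lie above it, whereas no squamous, enteroendocrine, lung or pluripotency gene does.

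Beside the epithelial program the grafts expressed 10 of the 16 genes of the cartilage list at a mean of at least 5 FPKM, and the other 6 stayed below 1 FPKM in every tumour. Col9a3, a chain of collagen IX, was at 398, 239, 248, 326 and 251 FPKM, Comp, a matrix protein of cartilage and tendon, at 215, 196, 277, 142 and 256 FPKM, and Snorc, a small proteoglycan, at 225, 146, 116, 180 and 135 FPKM. Col2a1, the main collagen of cartilage, varied far more, at 163, 67.3, 20.5, 50.001 and 28.3 FPKM, with tumour 1 highest and tumour 3 lowest. Sox5 and Sox6, partners of Sox9 in cartilage, had means of 5.17 and 6.57 FPKM, and Sox9, which also drives cartilage, is given above among the endoderm factors. The genes below 1 FPKM included the matrix genes Acan, Hapln1, Matn1 and Col11a1, with means of 0.0227, 0.00357, 0.0183 and 0.234 FPKM. Of the 10 expressed genes 4 were variable, beside 6.86% of all genes with a mean of at least 5 FPKM. Of the bone list, Spp1 (osteopontin, which macrophages and carcinoma cells also make) was at 20.4 FPKM on average, whereas the other 7 genes, among them Ibsp and Runx2, stayed below 1 FPKM in every tumour. Likewise Npy and Nptx1 (237, 176, 177, 119 and 190 FPKM) stood high in the neural list while Tubb3 and Syp, markers of neurons, had means of 0.325 and 0.137 FPKM.

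Mesenchymal genes gave a mixed picture. Fn1, the matrix protein fibronectin, was at 305, 344, 298, 215 and 218 FPKM. Vim, the intermediate filament of mesenchymal cells, was at 18.2, 29.9, 14.2, 11.9 and 11.3 FPKM, and Twist1, a factor of mesenchyme, at 16.4, 6.58, 1.53, 7.17 and 11.1 FPKM. Cdh2 (N-cadherin), Snai2 and Twist2 had means of 0.371, 0.140 and 0.00743 FPKM. Tumour 2 was highest in Vim and tumour 3 lowest in Twist1, so the named genes of this list did not follow 1 order of tumours.

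Variation among the grafts was larger than counting error for most genes and was concentrated in a minority of them. Of the 8037 genes with a mean of at least 5 FPKM, 551 had an SD of log2(FPKM + 1) of at least 0.5 over the 5 tumours (6.86%). The median SD was 0.20, against 0.04 that counting error alone would give, and 522 of the 551 had an SD more than 2 times their counting error. The gene just inside the threshold had an SD of 0.5001 and the gene just outside 0.4997. By type, 471 of the 551 encoded proteins, 24 were pseudogenes, 20 long noncoding RNAs, 20 snoRNAs, 9 miRNA genes and 7 others. An SD of at least 1 was reached by 81 genes. The 25 of largest SD had values between 1.44 and 3.25.

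Desert tumour 1 most often held the highest value and desert tumour 4 the lowest. Among the variable genes, 230 were highest in tumour 1 and 212 were lowest in tumour 4. These are 41.7% and 38.5%, beside 35.4% and 26.3% of all 8037 genes. Over the same 8037 genes the highest value lay in tumours 2, 3, 4 and 5 for 8.88%, 10.4%, 24.7% and 20.6%. The share highest in tumour 1 fell to 18.3% after rescaling to TPM, and tumour 4 then held the largest share (30.8%), so small differences that put tumour 1 on top depend on the scaling. In what follows, a scaling is named where it moved the tumour of the highest sum of a list whose sum is described. Counts of members highest or lowest in a tumour could also change with the scaling, and not every such change is named.

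**Figure D2:**
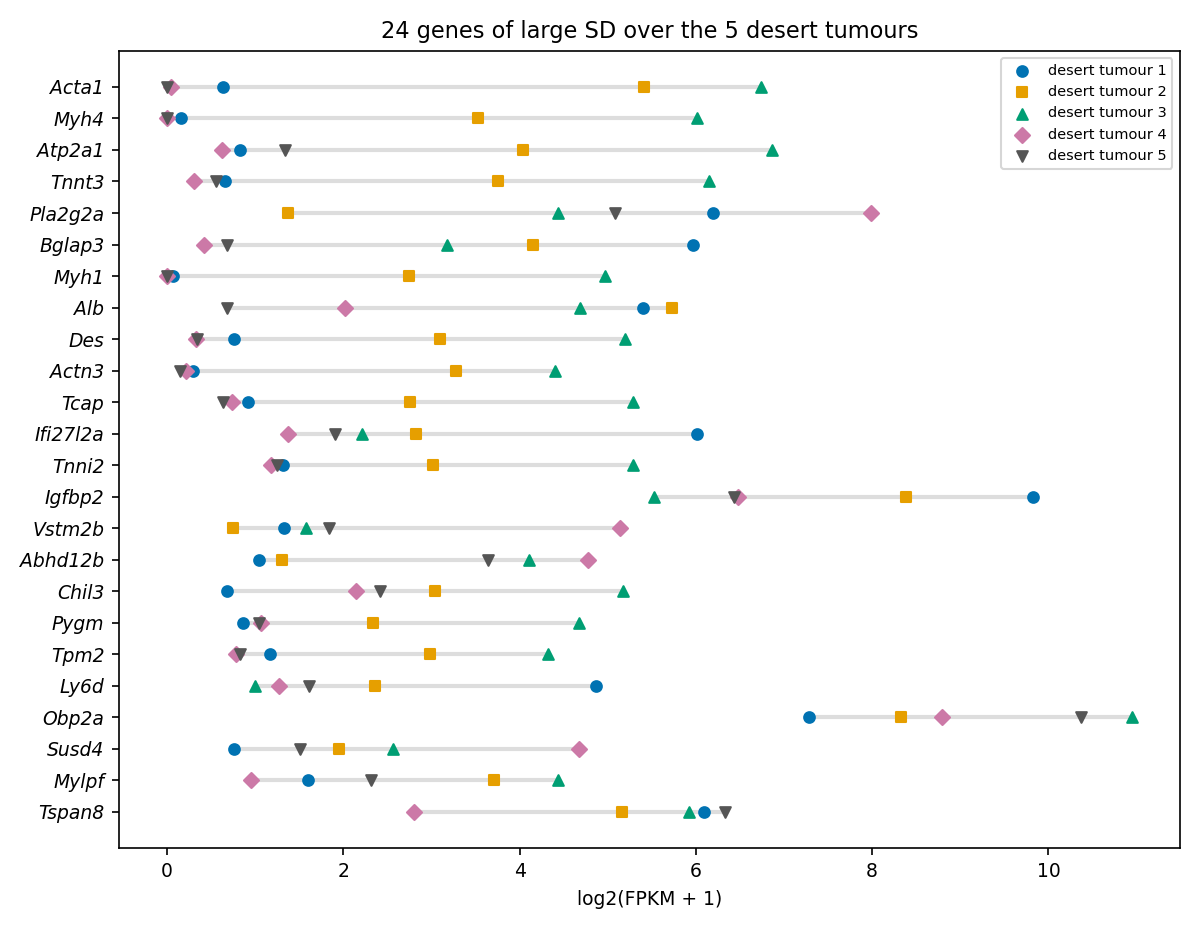
log2(FPKM + 1) of 24 of the 25 genes of largest SD, with 1 marker per desert tumour and a grey line from the lowest to the highest value. Muscle genes such as Acta1 and Myh4 have tumours 3 and 2 far to the right, whereas Igfbp2 and Ifi27l2a have tumour 1 at the right end and Vstm2b has tumour 4.

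Skeletal muscle genes made up 12 of the 25 genes of largest SD and were present in desert tumours 2 and 3. Acta1, the actin of the skeletal muscle sarcomere (ENSMUSG00000031972, chromosome 8, 124618508 to 124621490 in the deposited table), was at 0.552, 41.6, 106, 0.0342 and 0 FPKM in desert tumours 1 to 5. Myh4, the myosin heavy chain of fast fibres (ENSMUSG00000057003, chromosome 11, 67128855 to 67151272), was at 0.119, 10.5, 63.5, 0 and 0 FPKM. Tumour 3 was the highest and tumour 2 the next in both genes, and the other tumours were near 0. With 3 reads as the floor of a library at 0, Acta1 was at least 1030-fold and Myh4 at least 2421-fold higher in tumour 3 than in the tumour that held no read. Atp2a1, the calcium pump of fast fibres, was at 0.768, 15.4, 116, 0.544 and 1.53 FPKM, and Tnnt3, a fast troponin, at 0.576, 12.5, 70.0, 0.232 and 0.466 FPKM.

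The whole list moved in the same way. The summed level of the 12 muscle genes was 6.04, 122, 486, 3.33 and 8.13 FPKM in desert tumours 1 to 5, so the highest was 146 times the lowest. All 11 members with a mean of at least 1 FPKM were highest in tumour 3, beside 13.8% of all genes with that mean. All 8 members with a mean of at least 5 FPKM were variable, beside 6.86% of all genes with that mean. Members such as Acta1 and Myh4 reached these means only through tumours 2 and 3. Both counts therefore follow in part from the filter and are no separate evidence. Ckm, the muscle creatine kinase, Pvalb, a calcium buffer of fast fibres, and Mb, myoglobin, were at 9.36, 6.68 and 3.33 FPKM in tumour 3, and Pvalb and Mb had no read in tumours 1, 4 and 5. Des (desmin), which stood in the smooth muscle list, and Tcap, Pygm (muscle glycogen phosphorylase) and Tpm2, outside the lists, followed the same order between tumours 3 and 2. Des was at 0.694, 7.57, 35.6, 0.252 and 0.267 FPKM. Tumours 1, 4 and 5 were low in all of these genes, with Mylpf, a myosin light chain, the highest there (3.97 FPKM in tumour 5). Without tumours 2 and 3 the number of variable genes was 840, with the SD taken over 3 libraries.

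Genes that were switched between at least 5 FPKM in 1 tumour and at most 0.1 FPKM in another numbered 41 of the 8495 that reached 5 FPKM in any tumour and were open to naming (0.483%). Of the 41, 21 were highest in tumour 3, beside 10.8% of the 8495. The 10 of largest range included Acta1, Myh4 and Myh1 and 4 further genes of muscle: Eef1a2, the elongation factor of muscle and neurons, Mylk2, the myosin light chain kinase of skeletal muscle, Trim63, a muscle ubiquitin ligase, and Myot, a protein of the Z disc. Their values in tumour 3 were 13.18, 13.03, 13.01 and 12.85 FPKM, and none exceeded 0.05 FPKM in tumours 1, 4 or 5. The other named gene of this set behaved differently: Xlr3c, an X-linked gene of a multicopy family, was at 0.123, 0.186, 0.0784, 0.0332 and 13.4 FPKM, so tumour 5 stood apart. Reads shared with near-identical copies could be split in such families, and the labels do not say how the authors counted them.

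The promoters of muscle genes are shown because these genes moved together. Sequences are from the RefSeq promoter table (GRCm38.p6), written 5′ to 3′ on the gene's strand over the 250 bases before the start, which held 17 of the 25 genes of largest SD and 8 of the 12 muscle genes among them. Capitals mark CAGCTG, the E-box letters known for binding myogenic factors, and the TATA box letters searched for below, on either strand. Acta1 lies on the minus strand (chr8:123894776-123895025) and Myh4 on the plus strand (chr11:67237562-67237811).
Acta1: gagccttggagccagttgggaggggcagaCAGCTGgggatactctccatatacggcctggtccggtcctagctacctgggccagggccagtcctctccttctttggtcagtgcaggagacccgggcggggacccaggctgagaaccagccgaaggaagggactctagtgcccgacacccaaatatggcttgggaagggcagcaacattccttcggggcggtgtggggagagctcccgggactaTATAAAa
Myh4: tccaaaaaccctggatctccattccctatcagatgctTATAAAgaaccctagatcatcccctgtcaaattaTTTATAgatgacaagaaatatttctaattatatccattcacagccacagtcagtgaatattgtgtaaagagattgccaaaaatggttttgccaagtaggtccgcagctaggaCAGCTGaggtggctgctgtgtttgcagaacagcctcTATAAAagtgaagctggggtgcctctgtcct
CAGCTG, which reads the same on both strands, was found in 7 of the 8 muscle promoters (Acta1, Atp2a1, Des, Myh4, Mylpf, Pygm and Tpm2) and in 4271 of the 32851 promoters of the table. TATAAA was found on either strand in 3 of the 8 (Acta1, Myh1 and Myh4) and in 12.4% of all promoters. A match of letters is a description and shows no binding.

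Liver genes gave no list of their own. Alb, serum albumin, was among the 10 most variable genes, at 41.3, 52.2, 24.7, 3.05 and 0.608 FPKM in desert tumours 1 to 5, with an SD of 2.23. Tumours 1, 2 and 3 were high and tumours 4 and 5 low. The other genes that define hepatocytes did not follow it: Serpina1a and Fgb had no read in any tumour, and Cps1, Apob and Apoc3 did not exceed 0.123 FPKM. Apoa1 did not exceed 0.211 FPKM, and 7 of the 12 genes stayed below 1 FPKM in every tumour. Trf (transferrin), at 52.3, 47.8, 36.4, 21.3 and 38.7 FPKM, and Ttr (transthyretin), at 16.0, 18.3, 15.6, 19.3 and 25.6 FPKM, are made by other tissues too. The list's sum was 111, 120, 79.0, 47.5 and 68.6 FPKM, carried by Alb, Trf and Ttr.

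Red blood cell genes were highest in desert tumour 1. Hba-a1, an alpha globin, was at 59.0, 17.2, 14.0, 31.3 and 14.7 FPKM, and Hbb-bs, a beta globin, at 76.9, 26.7, 17.3, 46.5 and 13.5 FPKM. Tumour 1 was the highest in both and tumour 4 the next, with the other 3 tumours lower. All 5 members with a mean of at least 1 FPKM were highest in tumour 1, beside 28.7% of all genes with that mean, and this held after TPM, median-of-ratios and quantile scaling. The sum was 154, 51.9, 37.6, 90.9 and 32.1 FPKM. Slc4a1, a membrane protein of red cells, had a mean of 0.0430 FPKM. The near-identical alpha globin genes share reads, so the split between Hba-a1 and Hba-a2 is uncertain.

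Fat and exocrine pancreas left few signs. Cfd (adipsin) was at 0, 1.79, 4.85, 0.0570 and 9.55 FPKM, and the sum of the fat list was 1.85, 3.86, 10.7, 2.001 and 12.6 FPKM, highest in tumour 5. Fabp4, the only other member with a mean of at least 1 FPKM, went another way, highest in tumour 3 and lowest in tumour 5. Adipoq (adiponectin) followed the order of Cfd at a low level, at 0, 0.0852, 0.135, 0.0381 and 0.382 FPKM, and Cidec, a lipid droplet protein, was at 0, 0.190, 0.402, 0 and 0.994 FPKM. Plin1 and Lep, which also define adipocytes, had means of 0.0315 and 0 FPKM. Cela1, an elastase that epithelia outside the pancreas also make, was at 88.4, 79.8, 145, 146 and 147 FPKM, while the other 8 genes of the pancreas list, among them Prss2, Cpa1 and Ctrb1, stayed below 1 FPKM in every tumour. The pancreas sum was highest in tumour 5 as reported, in tumour 4 after TPM and median-of-ratios scaling and in tumour 3 after quantile scaling. The pancreas-type lipases Pnliprp1 (142, 49.9, 216, 374 and 183 FPKM) and Pnliprp2 (246, 19.7, 119, 101 and 69.9 FPKM) were abundant without those enzymes. These 2 lipases were named after their values were seen.

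**Figure D3:**
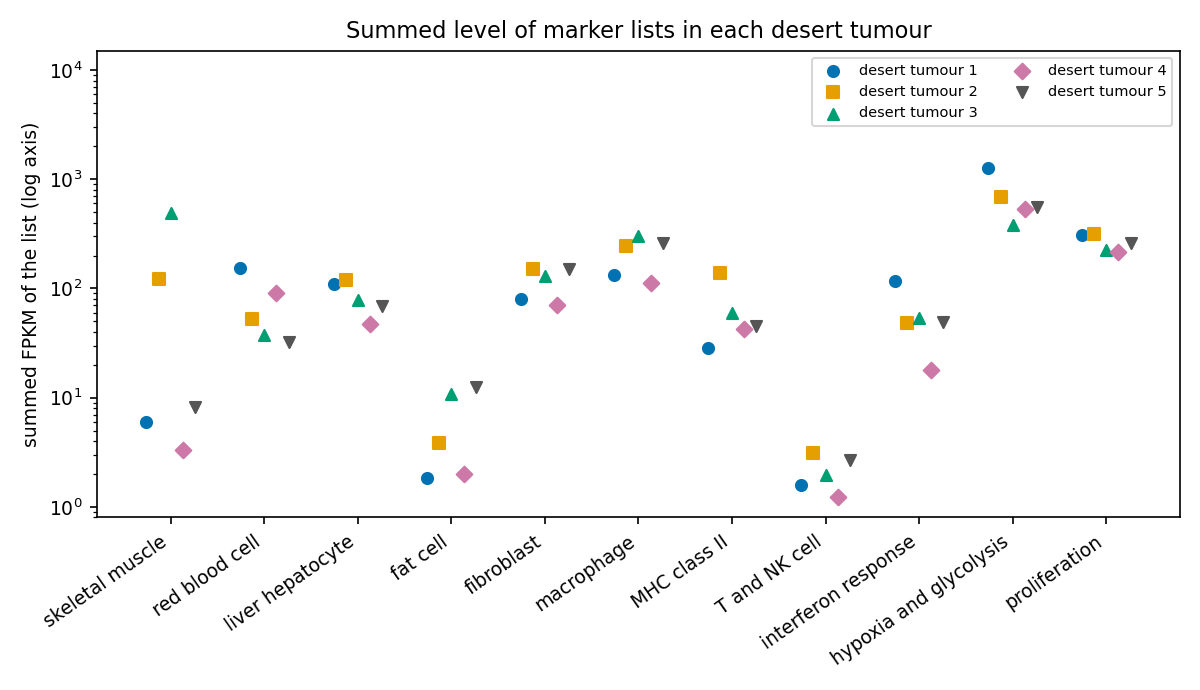
Summed FPKM of 11 marker lists on a log axis, with 1 marker per desert tumour. The muscle list spans 3.33 to 486 FPKM, the hypoxia and glycolysis list 382 to 1255, and the proliferation list 213 to 318.

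Stroma and macrophages varied together and were lowest in desert tumour 4. Col1a1, the main fibrillar collagen of fibroblasts, was at 23.4, 43.1, 32.4, 12.8 and 49.6 FPKM, and Col3a1 at 13.7, 27.4, 22.02, 8.99 and 32.0 FPKM. Lyz2, the lysozyme of macrophages, was at 37.1, 103, 165, 47.9 and 119 FPKM, and C1qb, a complement chain that macrophages make, at 16.8, 29.4, 37.7, 14.1 and 36.0 FPKM. In these 4 genes tumours 2, 3 and 5 were the higher ones and tumours 1 and 4 the lower ones. The split did not hold for every member and was not counted over all genes. Cd68, a macrophage gene of the list, was at 14.5, 9.88, 16.7, 5.65 and 13.5 FPKM, so tumour 1 was above tumours 2 and 5. All 7 fibroblast genes and all 6 macrophage genes with a mean of at least 5 FPKM were variable, beside 6.86% of all genes with that mean. Over members with a mean of at least 1 FPKM, 6 of 9 fibroblast genes and 7 of 10 macrophage genes were lowest in tumour 4, beside 24.7% of all genes with that mean. The summed macrophage level was 132, 244, 303, 112 and 260 FPKM and the summed fibroblast level 80.2, 150, 131, 70.5 and 149 FPKM. Pdgfra, a receptor of fibroblasts, went against its list, with tumour 4 highest (23.0 FPKM) and tumour 1 lowest (7.76 FPKM). Chil3, a chitinase-like protein of macrophages outside the list, was at 0.599, 7.21, 35.2, 3.41 and 4.33 FPKM. The muscle genes were also highest in tumour 3, and their part in the macrophage values was not tested.

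Lymphocyte genes were at the bottom of the scale in all 5 grafts. All 10 T and NK cell genes stayed below 1 FPKM in every tumour, and their sum was 1.58, 3.14, 1.97, 1.22 and 2.70 FPKM. Cd3e, a chain of the T cell receptor complex, did not exceed 0.0721 FPKM and Cd8a did not exceed 0.291. Of the 8 B and plasma cell genes only Igkc, the kappa light chain constant region, had a mean of at least 1 FPKM, at 1.71, 2.77, 2.80, 16.0 and 2.48 FPKM, so tumour 4 stood apart. Cd79a and Jchain, which define B and plasma cells, had means of 0.215 and 0.0402 FPKM. Neutrophil genes summed to 1.59 to 3.22 FPKM. Ly6g, which defines mouse neutrophils, did not exceed 0.0692 FPKM.

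MHC class II genes were highest together in desert tumour 2. Cd74, the invariant chain that escorts class II molecules, was at 15.5, 72.8, 34.9, 23.2 and 24.2 FPKM, and H2-Eb1, a class II beta chain, at 4.86, 27.1, 8.60, 7.54 and 8.84 FPKM. All 6 members with a mean of at least 1 FPKM were highest in tumour 2, beside 12.3% of all genes with that mean, and the sum was 28.6, 138, 59.8, 42.1 and 45.6 FPKM. The macrophage sum was highest in tumour 3. Of the 10 macrophage genes, 5 were highest in tumour 2 and 5 in tumour 3, beside 12.3% and 13.8% of all genes with a mean of at least 1 FPKM. The part of macrophages in the class II values was not tested. Acta2, the smooth muscle actin (8.78, 13.2, 3.82, 5.48 and 5.86 FPKM), and Vim shared the high value in tumour 2. Blood vessel genes were low, with a sum of 26.8, 41.2, 29.0, 41.1 and 32.3 FPKM, which was highest in tumour 2 as reported and in tumour 4 after each of the 3 other scalings. Cldn5, an endothelial tight junction protein, was at 1.70, 3.20, 1.89, 7.57 and 3.24 FPKM (SD 0.66), with tumour 4 apart.

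Interferon-inducible genes were highest in desert tumour 1 and lowest in desert tumour 4. Isg15, a ubiquitin-like protein, was at 39.4, 11.3, 10.3, 3.37 and 11.6 FPKM, Usp18, its protease, at 27.7, 12.9, 21.2, 4.09 and 21.9 FPKM, and Irf7, a factor of the response, at 13.6, 3.91, 4.51, 1.32 and 3.98 FPKM. Of the 10 genes, 9 were highest in tumour 1 and 9 lowest in tumour 4, beside 28.7% and 24.7% of all genes with a mean of at least 1 FPKM. The count highest in tumour 1 was 9 under all 3 other scalings, and the count lowest in tumour 4 was 8 after TPM and median-of-ratios scaling. Gbp2 was the exception, with tumour 2 highest (3.16 FPKM). Ifi27l2a, a further interferon-inducible gene, was at 63.5, 6.10, 3.62, 1.59 and 2.73 FPKM. B2m, the light chain of MHC class I, was at 1127, 728, 638, 502 and 332 FPKM. Tumour 1 led both Ifi27l2a and B2m, but tumour 5 and not tumour 4 was the lowest in B2m.

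Genes of the hypoxia response and glycolysis were highest in desert tumour 1. Egln3, an oxygen sensor that is itself induced by low oxygen, was at 74.1, 29.3, 10.6, 10.7 and 12.9 FPKM, and Ndrg1 at 47.2, 13.3, 5.24, 8.76 and 10.2 FPKM. Pgk1, a glycolytic kinase, was at 367, 194, 102, 122 and 174 FPKM, and Ldha, lactate dehydrogenase, at 459, 281, 159, 222 and 236 FPKM. In all 4 genes tumour 1 was the highest, tumour 2 the next and tumour 3 the lowest. Of the 10 members with a mean of at least 5 FPKM, 9 were variable, beside 6.86% of all genes with that mean. Vegfa, Car9, Slc2a1, Bnip3 and Adm were among the 9. In tumour 1, 11 of the 12 members were highest (10 after rescaling to TPM), beside 28.7% of all genes with a mean of at least 1 FPKM. Of the 12, 8 were lowest in tumour 3, beside 17.6% of all genes with a mean of at least 1 FPKM. Hk2, a hexokinase, was the exception at 46.6, 40.2, 29.2, 66.1 and 28.5 FPKM. The summed level was 1255, 685, 382, 537 and 558 FPKM. Red blood cell genes were also highest in tumour 1 but next highest in tumour 4, and their part in this pattern was not tested.

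The promoters of Egln3 (minus strand, chr12:54203875-54204124) and Pgk1 (plus strand, chrX:106186850-106187099) are shown for this program, with ACGTG, the core letters of the hypoxia response element, or its reverse complement CACGT in capitals.
Egln3: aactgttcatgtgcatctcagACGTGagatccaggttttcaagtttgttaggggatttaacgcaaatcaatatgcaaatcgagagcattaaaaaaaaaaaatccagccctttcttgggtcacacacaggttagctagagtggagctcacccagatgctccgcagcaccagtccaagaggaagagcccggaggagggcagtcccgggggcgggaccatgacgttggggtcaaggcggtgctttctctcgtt
Pgk1: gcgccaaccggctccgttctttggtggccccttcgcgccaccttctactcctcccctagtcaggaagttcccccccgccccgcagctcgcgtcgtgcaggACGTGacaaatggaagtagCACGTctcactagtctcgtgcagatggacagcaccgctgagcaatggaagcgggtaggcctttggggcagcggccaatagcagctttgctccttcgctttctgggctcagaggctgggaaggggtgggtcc
ACGTG on either strand was found in 10 of the 11 genes of the list with an entry in the table (Adm was the exception) and in 16.6% of all promoters. Counted by gene, the share over the table was 18.5%. A match of these letters likewise shows no binding. These letters were chosen after the values had been seen.

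None of the 12 genes of the proliferation list was variable, beside 6.86% of all genes with a mean of at least 5 FPKM. Mki67, a marker of cycling cells, was at 29.4, 32.1, 28.1, 18.98 and 27.5 FPKM, and Top2a, a topoisomerase of dividing cells, at 62.5, 73.0, 49.5, 48.5 and 59.6 FPKM. The median SD of the 12 genes was 0.28, beside 0.20 over all 8037 genes, so they were no steadier than most. In tumour 1, 5 of the 12 were highest and in tumour 2 the other 7, beside 35.4% and 8.88% of all genes with a mean of at least 5 FPKM. The count highest in tumour 2 was 11 after TPM or quantile scaling and 6 after median-of-ratios scaling. Pttg1, the securin of mitosis, was outside the list and variable (SD 0.60, mean 14.4 FPKM). The ribosomal protein list, which also holds Eef1a1 and Tpt1, had a median SD of 0.20. Of its 12 genes, 8 were highest in tumour 4, beside 24.7% of all genes with a mean of at least 5 FPKM (30.8% after TPM). The variable one was Rps27a, a ribosomal protein made as a ubiquitin fusion, at 186, 71.9, 138, 196 and 88.2 FPKM. Ribosomal protein genes have many processed copies, so their split of reads is uncertain.

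The 10 steadiest genes of at least 50 FPKM had SDs of 0.03 to 0.07. Ywhaq, a 14-3-3 protein, was at 118, 113, 116, 111 and 112 FPKM, with an SD of 0.03 beside 0.02 from counting error. Srsf2, Psmd2, Usp22, Dynlrb1, Ybx1, Hnrnpu, mt-Cytb, Srsf1 and Trim28 followed, with SDs of 0.05 to 0.07. Actb was close to them (SD 0.08), whereas Pgk1 and B2m, which also serve as reference genes, had SDs of 0.71 and 0.65 across the same grafts.

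The imprinted growth genes at 1 locus of chromosome 7 were high in desert tumours 1 and 2. H19 was at 3351, 2301, 788, 1125 and 782 FPKM. Igf2, the fetal growth factor read from the other parental allele, was at 213, 74.7, 38.5, 42.9 and 32.7 FPKM. Tumour 1 was the highest and tumour 5 the lowest in both, but tumour 2 was nearer to tumour 1 in H19 than in Igf2, and the level of H19 over that of Igf2 ranged from 15.8 in tumour 1 to 30.8 in tumour 2. Igfbp2, a binding protein of these growth factors, was at 908, 333, 45.0, 88.0 and 85.1 FPKM, and Hmga2, a fetal chromatin protein, at 10.8, 5.03, 4.19, 3.95 and 2.65 FPKM. Of the 9 members of the fetal and imprinted list with a mean of at least 1 FPKM, 5 were highest in tumour 1 and 3 in tumour 2, beside 28.7% and 12.3% of all genes with that mean, and 7 were lowest in tumour 5, beside 18.8%. Peg3, an imprinted zinc finger gene, was among these 7 (30.8, 38.8, 23.3, 37.5 and 11.6 FPKM), with tumour 2 highest. Igf2bp2, an RNA-binding protein of fetal tissues, was at 6.05, 3.01, 3.44, 2.81 and 0.513 FPKM. Other members were hardly expressed: Lin28a and Lin28b had no read, and Dlk1 and Meg3 had means of 0.0356 and 0.569 FPKM.

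Targets and inhibitors of Wnt signalling were strongly expressed in all 5 grafts. Wnt signals stabilise beta-catenin, which switches on genes that in turn restrain the pathway. Of the list, 10 of 12 genes reached a mean of 5 FPKM. Axin2, a scaffold of the destruction complex, was at 101, 67.0, 104, 106 and 107 FPKM, Nkd1 at 260, 222, 336, 310 and 226 FPKM, and the secreted inhibitor Wif1 at 230, 129, 312, 235 and 250 FPKM. Rnf43 and Znrf3, ubiquitin ligases that remove Wnt receptors, had SDs of 0.09 and 0.10. Notum, a secreted enzyme that inactivates Wnt ligands, was one of the 2 variable members, at 252, 278, 693, 821 and 855 FPKM, and Sp5, a target factor, was the other, at 17.4, 16.8, 38.1, 60.7 and 27.6 FPKM. Tumours 1 and 2 were lower than tumours 3, 4 and 5 in both. Axin2 and Wif1 shared this split, Nkd1 did not, and it was not counted over all genes. Dkk1, another secreted inhibitor, had a mean of 0.00537 FPKM.

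Grouping the 551 variable genes by their standardised profiles gave 6 groups. The grouping used the FPKM as reported and was not repeated under another scaling. The largest, with 237 genes, was high in tumour 1 and low in tumour 4, and 216 of its genes were highest in tumour 1. It held the 9 variable hypoxia genes, H19, Igf2, Hmga2, Npy, Col2a1, Col9a2, Col11a2, Alb, both variable globins, Isg15, Irf7 and B2m, with Bglap3, a gene of the osteocalcin family, at its head (61.4, 16.8, 8.01, 0.340 and 0.602 FPKM). The next group, with 107 genes, was high in tumour 3 and low in tumour 4 and held all 8 variable muscle genes, 5 fibroblast genes and 5 macrophage genes. The group of 106 genes, low in tumours 1 and 2, held Obp2a, Muc6, Apoe, Notum, Sp5 and Pdgfra, with Abhd12b at its head (1.06, 1.48, 16.2, 26.4 and 11.5 FPKM).

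The smaller groups each followed 1 tumour. The group of 78 genes was high in tumour 4 and low in tumour 5, with 61 of its genes highest in tumour 4. Vstm2b, an immunoglobulin-domain membrane protein, led it at 1.52, 0.686, 1.99, 34.2 and 2.57 FPKM, followed by Susd4, a complement regulator (0.693, 2.87, 4.91, 24.5 and 1.84 FPKM), and Cdh11, a mesenchymal cadherin (1.16, 5.80, 1.78, 20.2 and 1.68 FPKM). The group of 12 genes was high in tumour 2 and held the 4 variable MHC class II genes, Acta2 and Vim. The group of 11 genes was low in tumour 2: Pla2g2a, a secreted phospholipase, was at 72.3, 1.59, 20.7, 254 and 33.0 FPKM, and Aldh1a1, a retinal dehydrogenase, at 297, 64.1, 259, 118 and 248 FPKM. Pla2g2a had the fifth largest SD of all and a highest value 159 times its lowest.

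**Figure D4:**
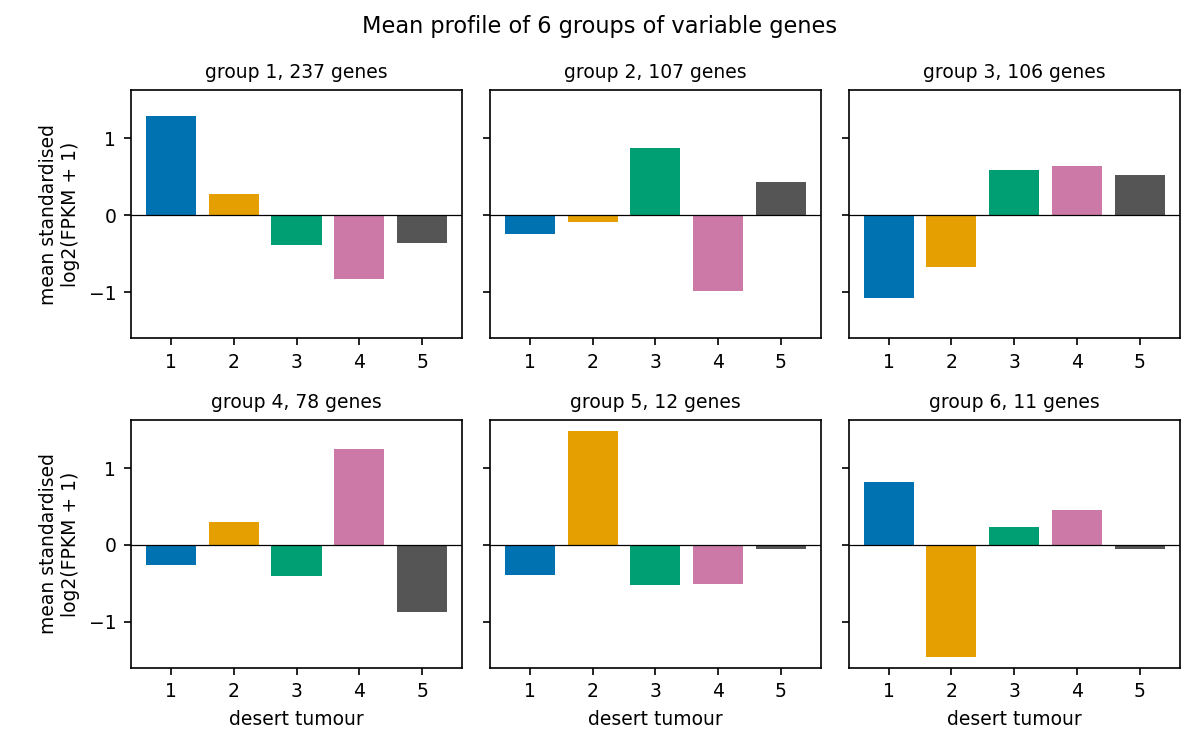
Mean standardised log2(FPKM + 1) of each of the 6 groups of variable genes in desert tumours 1 to 5. Group 1, with 237 genes, is highest in tumour 1 and lowest in tumour 4, group 2 is highest in tumour 3, group 4 in tumour 4 and group 5 in tumour 2.

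Profiles nearest to a chosen gene were found by the root mean square difference between standardised profiles over the 5 tumours. Only genes with a mean of at least 5 FPKM were searched. For Acta1 they included the muscle genes Actn3, Tpm2 and Myh4, but also Top2b and Eef1akmt1, whose SDs were only 0.11 and 0.13. For Cd74 they included H2-Aa, H2-Ab1 and H2-Eb1, with Stk17b and Ckap5. For Igf2 they were Tdp2, Mydgf, Tent2, Egln1 and Atl2, and for Col2a1 Snx9, Ggcx, Dnajb1, Ssr2 and Qtrt1. For Hba-a1 they were Arid1b, Junb, Slc25a13, Myo10 and Lrrfip1. Hbb-bs, the only other globin of the list that was open to this search, was not among the 5. For Alb they were Sparcl1, Gmfb, Bmpr1a, Kpna3 and Hcfc1. Of the hepatocyte list only Trf and Ttr were open to this search besides Alb, so the absence of its genes here says little. For Mki67 they were Extl2, Ddx21, Cd24a, Ccnd1 and Ctse. With 5 libraries, an order of tumours is often shared: 2.92% of the other genes had the same order as Igf2 and 2.85% the same as Col2a1, beside 0.174% for Acta1 and 0.137% for Cd74.

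Ctse, a gastric aspartic protease, was the neighbour of Mki67 with the largest SD (1.04). It was at 123, 203, 101, 27.98 and 96.2 FPKM in desert tumours 1 to 5, with tumour 4 low. Tspan8, a tetraspanin of gut epithelia, was also low in tumour 4, at 67.5, 34.9, 59.7, 5.99 and 79.8 FPKM. Ly6d, a membrane protein of epithelia, was high in tumour 1, at 28.1, 4.11, 1.002, 1.41 and 2.05 FPKM.

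The median level of genes also shifted by chromosome. For each gene with a mean of at least 5 FPKM the deviation of a tumour from the median tumour was taken on the log2 scale, and the median of the genes of a chromosome was read for each tumour. Of the 100 values of autosomes and the X chromosome, 88 were within 0.1 of 0, and they ranged from -0.27 to 0.32. The 231 genes of chromosome 13 had a median of 0.32 in desert tumour 1, and 77.9% of them were highest in that tumour, beside 35.4% of all genes. In desert tumour 4 the median was -0.27 on the X chromosome (242 genes), -0.22 on chromosome 10, -0.18 on chromosome 7 and 0.14 on chromosome 8.

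These shifts kept their sign on either side of a split by position, for each chromosome checked. With its genes split by position into an upstream and a downstream set of equal size, chromosome 13 in tumour 1 had medians of 0.35 and 0.27. The X chromosome in tumour 4 had -0.31 and -0.20, and chromosome 12 in tumour 1, which was lower, had -0.19 and -0.19. Less even were chromosome 8 in tumour 5 (-0.08 and -0.21) and chromosome 1 in tumour 4 (0.17 and 0.08), which were not followed further. Such a split cannot show whether a shift covers the whole length. Chromosome 17 (0.21) and chromosome 6 (-0.14) in tumour 1 and chromosome 19 in tumour 5 (-0.17) were the others followed. None of the 9 chromosome values followed changed sign under another scaling, pseudocount or filter, or with another tumour left out. The value of chromosome 13 in tumour 1 was lowest after rescaling to TPM (0.19). The value of chromosome 17 in tumour 1 fell to 0.09 after that rescaling. Neighbours of Igf2 in profile, Tdp2 and Tent2, lie on chromosome 13, and Igf2 itself lies on chromosome 7. DNA was not measured here. This reading by chromosome was added after the data had been seen.

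**Figure D5:**
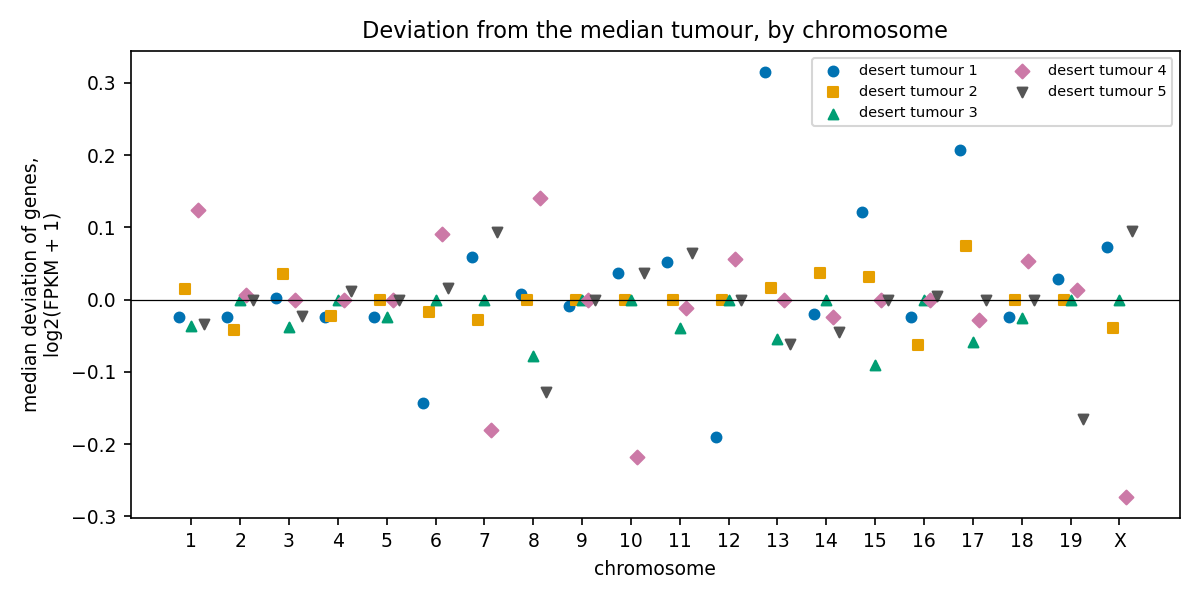
Median deviation of the genes of each chromosome from the median tumour, in log2(FPKM + 1), with 1 marker per desert tumour. Chromosome 13 in tumour 1 is the highest at 0.32 and the X chromosome in tumour 4 the lowest at -0.27, and 88 of the 100 values lie within 0.1 of 0.

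Genes of the Y chromosome were not expressed in any of the grafts. Ddx3y, Kdm5d, Eif2s3y and Uty, which male cells of most tissues express, had no read in any of the 5 libraries, and none of the 1569 Y genes of the table reached a mean of 1 FPKM. Xist, the RNA that coats the inactive X chromosome of female cells, was low, at 0.911, 2.21, 1.84, 0.975 and 1.25 FPKM. The X-linked partners Eif2s3x and Kdm6a had means of 25.9 and 8.09 FPKM. The labels do not give the sex of hosts and grafts.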

How the data were processed

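Each library is 1 desert tumour, and the labels gave the group. The authors deposited FPKM per gene, and mm10 is named in the submitters' processing notes. The aligner, the counter and strandedness are not given in the sources used here. Gene positions are printed as the table gives them, with no build, since of 52073 gene IDs shared with GENCODE M21 only 1485 had the same start. FPKM times gene length moved in whole steps (100% of values within 0.01 of a whole read), which gave reads per gene and the counting error, and intervals of this kind cover counting error only. Values were analysed as log2(FPKM + 1). A gene was called variable with a mean of at least 5 FPKM and an SD of at least 0.5. The variable genes were put into 6 groups by standardised profile. With 1 group and no contrast there was no test.

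Of 392 entries in 38 gene lists, 391 were found and the other was not analysed here. Some genes under the rules below are not reported here. The members and lists were chosen with earlier results of these data known. Genes named were the 20 of highest mean, the 25 of largest SD, the 10 steadiest at 50 FPKM or more, up to 10 at 5 FPKM or more in 1 tumour and 0.1 or less in another, the 5 nearest profiles to each anchor gene, the 2 of highest mean and the 2 of largest SD of each list, and defining markers. Predicted genes, pseudogenes and receptor segments were left out, apart from Igkc, a list member. Alternatives were TPM, median-of-ratios and quantile scaling, other pseudocounts and thresholds, and each tumour left out in turn. The scripts were tested on simulated data and used Python 3.11.15, numpy 2.4.6, pandas 2.3.3, scipy 1.17.1 and matplotlib 3.10.9.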

Additional observations from a re-analysis of the deposited data

Results flagged for a closer look

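In 8 of 210 sets of 5 values checked (172 genes and 38 list sums), 1 tumour was far from the other 4: its gap to the nearest value, as a share of the whole range, was above 0.71. That is 3.81%, and chance marks about 1 in 20 such sets. Desert tumour 4 was the low one in Ccnd1, the cyclin of the G1 phase (gap share 0.777), in Cd24a, an epithelial surface glycoprotein (0.756), and in Kdm6a, an X-linked histone demethylase (0.754). Ccnd1 was at 84.6, 86.9, 78.9, 52.0 and 77.5 FPKM in desert tumours 1 to 5. Tumour 4 was the high one in Vstm2b (0.753), in Igkc, the kappa light chain (0.816), and in the sum of the B and plasma cell list (0.717), which Igkc carries. Tumour 5 was the high one in Xlr3c (0.948), and tumour 1 in the sum of the cartilage list (0.829), at 1189 FPKM against 751 to 812 FPKM in the others.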

How the results depend on the processing

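No paired analysis was possible because the tumours form 1 group and no result comes from a test. The number of variable genes was 551 as reported. It was 305 with a pseudocount of 5, 932, 199 and 81 with an SD of at least 0.4, 0.75 and 1, 1341 and 192 with a mean of at least 1 and 20 FPKM, and 1852 with no filter. Without desert tumours 2 and 3 together, an alternative chosen after the data had been seen, it was 840, and with each tumour left out in turn it was 459 to 632. The share of the first principal component was 44.0% as reported, 39.1% with a mean of at least 1 FPKM, 36.0% with no filter and 46.9% to 57.3% with a tumour left out. The highest over the lowest sum, with a tumour left out, was 1.74 to 2.52 for liver, 36.7 to 146 for skeletal muscle (36.7 without tumour 3), 2.83 to 4.80 for red blood cells (2.83 without tumour 1), 5.79 to 6.84 for fat and 1.67 to 1.84 for pancreas. None of the 9 chromosome values changed sign under the alternatives run. The other results were counts, shares, ranges or ratios, which have no sign to change. With another scaling or pseudocount, 141 of 1480 values for the 296 gene ranges moved by more than the gene's SD. With a tumour left out, 164 of 1480 did. For the highest over the lowest of the 38 list sums, 4 of 114 and 13 of 190 moved by more than their spread. Of 63 other settings for the 9 chromosome values, 3 moved the value by more than its spread, all after rescaling to TPM. Depth limits the genes below about 1 FPKM, which rest on few reads, and 5 libraries limit every statement on shared profiles.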

Other observations

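Several secreted and signalling genes outside the lists differed among the grafts and were chosen after their values had been seen. Ptn, the growth factor pleiotrophin, was at 29.6, 20.9, 81.6, 116 and 122 FPKM in desert tumours 1 to 5, and Coch, a secreted matrix protein, at 51.3, 21.9, 111, 79.8 and 135 FPKM, so tumours 1 and 2 were the lower ones in both. Lcn2, an iron-carrying lipocalin of inflamed epithelia, was at 44.2, 9.83, 1.78, 9.60 and 6.91 FPKM, with tumour 1 high and tumour 3 low. Il33, an alarmin cytokine of epithelial and stromal cells, was at 26.5, 24.003, 7.53, 35.7 and 6.96 FPKM, and Id3, an inhibitor of helix-loop-helix factors, at 3.53, 13.7, 3.92, 14.4 and 2.47 FPKM. Tumours 3 and 5 were low in Il33, and tumours 2 and 4 were high in Id3. Gsdma, a pore-forming gasdermin, was at 54.3, 11.2, 4.72, 3.72 and 5.74 FPKM, with tumour 1 apart from the others. Sumo2, a ubiquitin-like modifier with near-identical copies in the genome, was at 46.5, 6.58, 37.5, 36.3 and 47.7 FPKM, with tumour 2 low.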
